A study of Homo sapiens with 5 samples.

Results

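L1CAM and 8 related cell surface proteins of the immunoglobulin superfamily (CHL1, NRCAM, NFASC, NCAM1, ALCAM, MCAM, ICAM1 and VCAM1) were followed across a parental human renal cell carcinoma line and its lung-metastatic derivatives. The members were chosen by name, as adhesion molecules around L1CAM, with the line differences of L1CAM on these same arrays already known. Their values are therefore given as a description of these arrays, without tests. They are 9 of the 19775 genes that had a probe set of their own. Total RNA was hybridised to 5 Affymetrix arrays. The parental line SN12C is labelled non-metastatic and was measured in 2 biological replicates, its derivative LM1 (lung metastatic, generation 1) on a single array, and LM2 (lung metastatic, generation 2) in 2 biological replicates. The labels name no treatment and do not say whether a derivative is a clone or a mixed population.

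Immunoglobulin superfamily adhesion molecules carry extracellular immunoglobulin domains, with which they bind the same protein on a neighbouring cell or a different partner such as an integrin. L1CAM, CHL1, NRCAM and NFASC form the L1 family, known from axon growth and fasciculation, whose cytoplasmic tails bind ankyrin and so the spectrin skeleton. L1CAM also appears on carcinoma cells, where it has been linked to motility and invasion. NCAM1 and ALCAM bind in a homophilic way, MCAM was first described on melanoma and is found on endothelium, and ICAM1 and VCAM1 are the cytokine-induced counter-receptors of leukocyte integrins.

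The values are log2 signals, 1 per probe set and array, so that a difference of 1 log2 unit is a fold of 2. A gene counted as tested where its brightest probe set reached the 40th percentile of all values, 6.03 log2 units, on at least 2 arrays. Values below 6.03 are treated as near background, and reaching 6.03 does not by itself show that a gene is expressed. Of the 9 members, 6 passed (L1CAM, ALCAM, MCAM, ICAM1, NCAM1 and NFASC), and CHL1, NRCAM and VCAM1 did not. The platform table listed 30 probe sets for the members, 26 with the member alone and 4 with both MCAM and the microRNA gene MIR6756, so that the gene read by those 4 is not settled here. Of the 30 probe sets, 17 reached the filter and 13 did not.

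Promoter sequences are shown for L1CAM, the member with the largest difference, and for ICAM1 and VCAM1, a pair of cytokine-induced genes of which the first reached the filter in these lines and the second did not. Each is the 250 bases before an annotated transcription start, taken from RefSeq (GRCh38.p14). Of the 9 members, 8 matched an entry in that table. In the L1CAM window, which ends at the more distal of its 2 annotated starts (chrX:153876015-153876264, minus strand), capitals mark the GC box GGGCGG.

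L1CAM: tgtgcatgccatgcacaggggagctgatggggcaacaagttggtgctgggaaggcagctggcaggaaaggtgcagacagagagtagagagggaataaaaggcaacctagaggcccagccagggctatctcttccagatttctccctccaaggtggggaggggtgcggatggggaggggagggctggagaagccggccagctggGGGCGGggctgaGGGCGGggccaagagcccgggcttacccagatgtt

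In the windows of ICAM1 (chr19:10270870-10271119, plus strand) and VCAM1 (chr1:100719492-100719741, plus strand) capitals mark matches to GGNNNTTCC on either strand, a pattern of the kind that NF-kappaB binds.

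ICAM1: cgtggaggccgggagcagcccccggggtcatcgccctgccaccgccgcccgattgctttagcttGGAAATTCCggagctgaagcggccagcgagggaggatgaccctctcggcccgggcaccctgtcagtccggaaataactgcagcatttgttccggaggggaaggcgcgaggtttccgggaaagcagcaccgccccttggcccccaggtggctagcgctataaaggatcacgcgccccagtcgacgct

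VCAM1: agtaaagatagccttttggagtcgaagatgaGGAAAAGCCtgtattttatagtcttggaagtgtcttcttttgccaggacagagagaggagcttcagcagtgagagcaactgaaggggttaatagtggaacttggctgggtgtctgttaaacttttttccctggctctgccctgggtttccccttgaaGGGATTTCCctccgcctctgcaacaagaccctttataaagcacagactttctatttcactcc

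The GC box GGGCGG, searched on both strands, began 47 and 35 bases before the L1CAM start, and 42.6% of the 35116 windows of this length in the table held at least 1. The pattern GGNNNTTCC began 186 bases before the ICAM1 start and 219 and 62 bases before the VCAM1 start, and 17.1% of all windows held it. No window of the 6 other members in the table held it. The TATA sequence TATAAA lay 30 bases before the ICAM1 start and 31 and 29 bases before the VCAM1 start, where matches on opposite strands overlap, and a further VCAM1 match lay at 205, and 10.7% of all windows held it. These are matches of letters and show no binding.

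Some properties of the arrays bear on the values that follow. The 3' less 5' signal of the beta-actin control probe sets was 3.43 log2 units on LM1, against 0.07 to 0.47 on the 4 remaining arrays, and that of GAPDH was 2.09 against -0.07 to 0.14. The differences from SN12C that several probe sets of 1 gene gave stood apart by at least 1 log2 unit for 36.7% of 7195 genes in LM1 and for 4.14% in LM2, which is a mean of 2 arrays where LM1 is a single one. SN12C replicate 1 had a narrower spread of values (SD 2.11 against 2.22 to 2.25), so differences are also given against each SN12C array. Of all probe sets, 53.3% had the same deposited value on at least 2 arrays, and the commonest single value, 4.28, occurred 635 times in the table. The signal is an average over a culture, so more cells with a transcript and more transcript per cell cannot be told apart. No gene passed an adjusted p of 0.05 in limma, 0.0% of 15024, in any of the 3 comparisons of lines. The lowest adjusted p was 0.225 for LM2 against SN12C, 0.0964 for LM1 against SN12C and 0.178 for LM2 against LM1, and at an unadjusted p under 0.05 there were 1737, 3324 and 2555 genes. Of 10 renal carcinoma markers measured, 8 reached the filter, among them PAX8 (9.19 to 9.82), VIM (13.97 to 14.37) and KRT18 (14.04 to 14.72), while EPCAM and LRP2 did not. KRT19, of the same list, differed most between the lines, from 8.92 and 9.54 in SN12C to 12.01 in LM1 and 11.76 and 11.74 in LM2.

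L1CAM, the founding member of its family, was higher in both lung-metastatic lines. Its brighter probe set, 204584_at, read 7.12 and 7.76 in SN12C, 10.59 in LM1 and 9.80 and 9.89 in LM2. Every lung-metastatic array was above both SN12C arrays, and the LM2 replicates lay closer together than the SN12C pair. The LM2 pair was also the closer one over all tested genes, with a median gap of 0.07 against 0.28 log2 units. LM2 exceeded SN12C by 2.40 ± 0.26 log2 units (SE of the limma fit), 5.28-fold, and LM1 by 3.15 ± 0.32, 8.89-fold. Since LM1 is a single array, its SE here and below rests on the spread of the SN12C and LM2 pairs alone. Against SN12C replicate 1 and replicate 2 alone, the LM2 difference was 2.72 and 2.08.

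The other L1CAM probe set, 204585_s_at, showed the same direction at a smaller size. It read 7.27 and 7.71 in SN12C, 8.14 in LM1 and 8.46 and 8.50 in LM2. The lines again did not overlap, with LM2 higher than SN12C by 0.99 and LM1 by 0.66 log2 units. The order of the derivatives differed between the probe sets: LM1 stood above LM2 by 0.75 in 204584_at and below it by 0.34 in 204585_s_at. The order of LM1 and LM2 is therefore not settled by these probe sets, while SN12C was lowest in both. The LM1 array is the one with the high 3' to 5' difference of the control transcripts, and its part in the LM1 values was not tested.

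**Figure D1:**
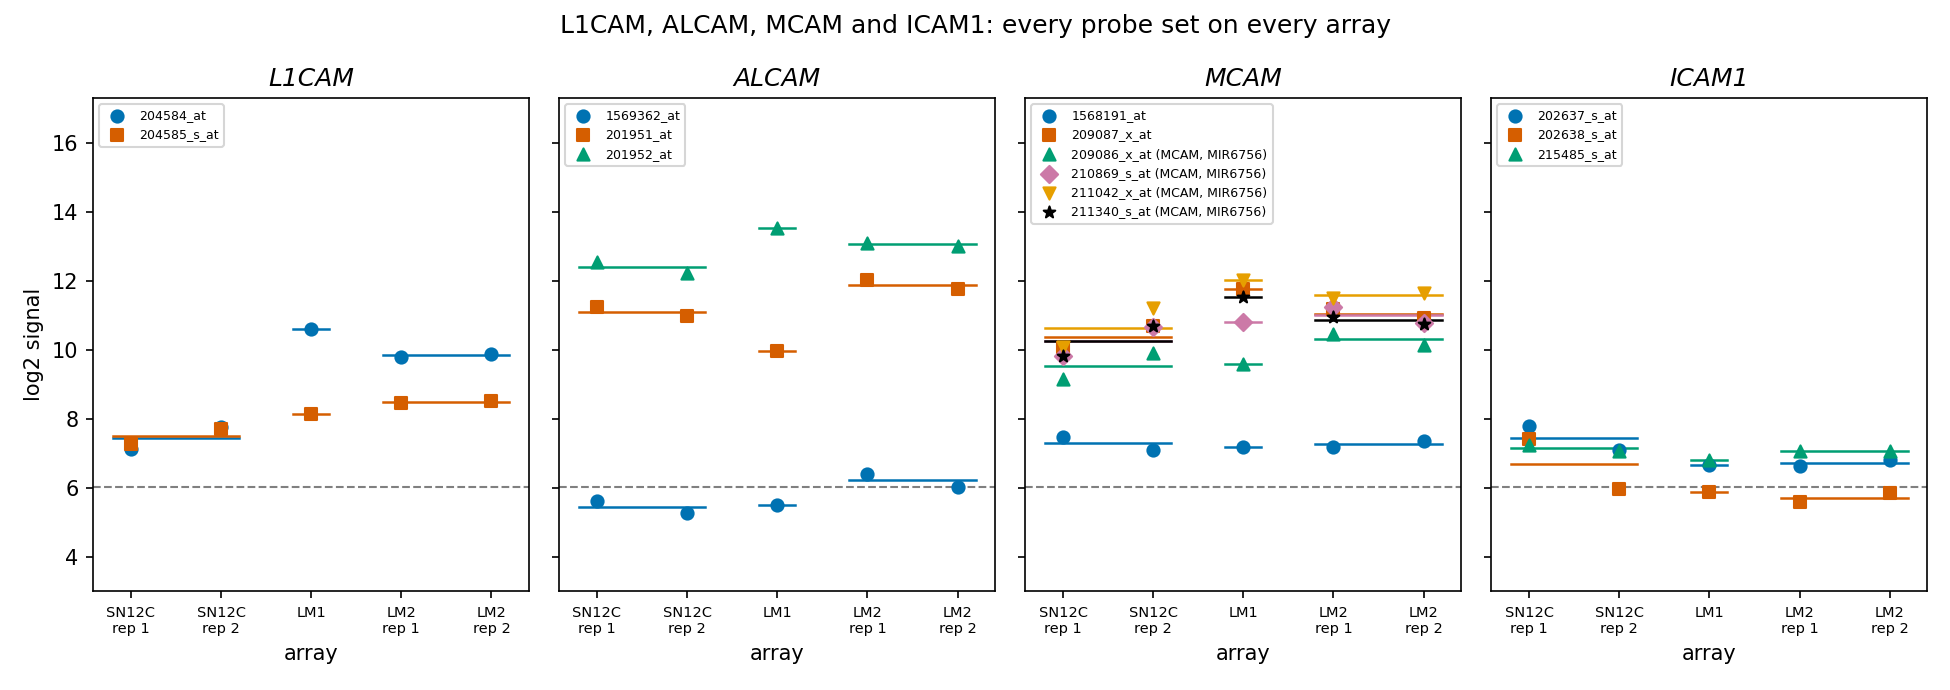
Log2 signal (y axis) on each of the 5 arrays (x axis) for every probe set of L1CAM, ALCAM, MCAM and ICAM1; horizontal lines are line means and the dashed line is the filter value of 6.03. Both L1CAM probe sets are lowest on the SN12C arrays, and 1 ALCAM probe set moves down and another up on the LM1 array.

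Among all tested genes, 1.72% were at least 1 log2 unit higher in LM2 than in SN12C and 1.26% at least 1 lower. Of the 6 tested members, L1CAM was the only one in the first group and none was in the second. In LM1 the brightest probe sets of 3 members, L1CAM, ALCAM and MCAM, were at least 1 log2 unit above the SN12C mean, where 6.27% of all tested genes were, and none was at least 1 below, where 1.94% were. SN12C and LM2 arrays did not overlap for 3 tested members, L1CAM, ALCAM and MCAM, all higher in LM2, where 25.3% of all tested genes were higher in that way, 14.1% lower and 39.4% either. LM1 was above both SN12C arrays for the same 3 members and below both for ICAM1 and NCAM1, where 45.2% of all tested genes were above and 20.8% below. The median difference of the 6 tested members was 0.33 in LM2 and 0.56 in LM1, against 0.03 and 0.09 over all tested genes. The members were chosen with values of these contrasts known, so nothing is read from these shares. The LM1 and LM2 differences share the SN12C arrays.

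ALCAM, activated leukocyte cell adhesion molecule, binds itself and the lymphocyte receptor CD6. Its brightest probe set, 201952_at, read 12.55 and 12.23 in SN12C, 13.53 in LM1 and 13.09 and 13.02 in LM2. The probe set 201951_at read 11.23 and 10.97 in SN12C, 9.95 in LM1 and 12.02 and 11.75 in LM2. The dimmest, 1569362_at, read 5.62 and 5.27 in SN12C, 5.50 in LM1 and 6.41 and 6.02 in LM2, and reached 6.03 on 1 array. In LM2 all 3 probe sets lay above both SN12C arrays, by 0.66 ± 0.14 (SE), 0.78 and 0.77 log2 units, a narrow range. In LM1 they disagreed: 201952_at was 1.14 above the SN12C mean and 201951_at differed from it by -1.15, while 1569362_at differed by 0.06.

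Of the 7195 genes with several probe sets above the filter, 160 (2.22%) had in LM1 a probe set at least 1 log2 unit higher and another at least 1 lower than in SN12C, and 0 had this in LM2. ALCAM is 1 of these 160, and the direction of its LM1 difference cannot be given from these arrays. The LM1 array is the one with the high 3' to 5' difference of actin and GAPDH. Its part in the disagreement was not tested, because the positions of the probe sets within the transcripts were not used here.

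MCAM, the melanoma cell adhesion molecule, was higher in LM2 mainly in comparison with SN12C replicate 1. The probe set assigned to MCAM alone with the highest signal, 209087_x_at, read 10.06 and 10.69 in SN12C, 11.77 in LM1 and 11.19 and 10.91 in LM2. LM2 exceeded SN12C by 0.67 ± 0.28 (SE), by 0.99 against replicate 1 and by 0.36 against replicate 2. The arrays of the lines did not overlap, but the LM2 values lay close to SN12C replicate 2. LM1 exceeded the SN12C mean by 1.39 ± 0.34. A suffix of _x_at marks a probe set whose probes can bind several transcripts, so this value is uncertain as to the gene.

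The 4 probe sets listed with both MCAM and MIR6756 gave LM2 differences from 0.60 to 0.94 log2 units, which were 1.04 to 1.51 against SN12C replicate 1 and 0.16 to 0.38 against replicate 2. All 5 of these MCAM probe sets were lowest on SN12C replicate 1, which lay 0.63 to 1.14 below replicate 2. In LM1 the 4 shared probe sets ranged from 0.05 to 1.38 above SN12C. The remaining MCAM probe set, 1568191_at, which carries no such suffix, read 7.47 and 7.10 in SN12C, 7.17 in LM1 and 7.19 and 7.36 in LM2. There the lines overlapped, and LM2 and LM1 differed from SN12C by -0.02 and -0.11.

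**Figure D2:**
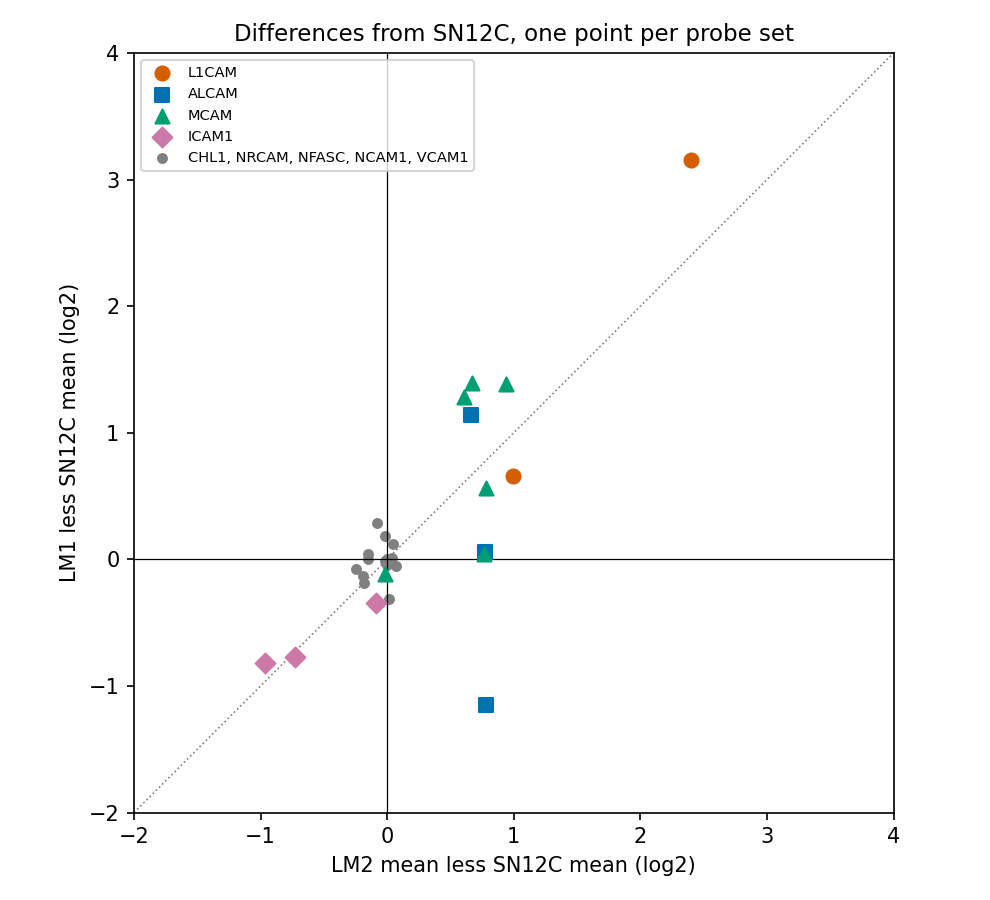
LM2 mean less SN12C mean (x axis, log2) against LM1 less SN12C mean (y axis, log2), 1 point per probe set of the 9 members; the dotted line marks equal differences. Both axes share the SN12C arrays. L1CAM lies at 2.40 and 3.15 in its brighter probe set, the 2 ALCAM probe sets with high signal lie at 1.14 and -1.15 on the y axis, and the 16 grey points lie near the origin.

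ICAM1, the ligand of the leukocyte integrins of the ITGB2 chain, was lower in both derivatives in 2 of its 3 probe sets, with the wider gap to SN12C replicate 1. The probe set 202637_s_at read 7.79 and 7.08 in SN12C, 6.66 in LM1 and 6.62 and 6.80 in LM2. The probe set 202638_s_at read 7.40 and 5.97 in SN12C, 5.87 in LM1 and 5.58 and 5.85 in LM2. In both, every lung-metastatic array was below both SN12C arrays, but in the second only SN12C replicate 1 reached the filter value. LM2 stood at -0.72 and -0.97 from SN12C in these probe sets, and at -0.37 and -0.25 from SN12C replicate 2 alone.

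The third ICAM1 probe set, 215485_s_at, which had the highest mean and so stood for the gene, read 7.25 and 7.07 in SN12C, 6.81 in LM1 and 7.07 and 7.07 in LM2. The deposited value was identical on SN12C replicate 2 and both LM2 arrays, and occurred 109 times in the table. The LM2 difference was -0.09 ± 0.10 (SE), and -0.35 ± 0.12 in LM1. LM1 was below both SN12C arrays in all 3 ICAM1 probe sets, by -0.77, -0.82 and -0.35 from the SN12C mean. VCAM1, the ligand of the integrin chain ITGA4, was read by a single probe set, 203868_s_at, at 4.78 and 4.46 in SN12C, 4.61 in LM1 and 4.61 on both LM2 arrays. All values were below 6.03, and the derivatives lay between the SN12C replicates, so VCAM1 was near background in every line.

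The other L1 family members did not follow L1CAM. CHL1, the close homologue of L1, read 3.93 to 4.18 over 2 probe sets and 5 arrays, and NRCAM read 4.86 to 5.50 over 2 probe sets, all below 6.03. NFASC, neurofascin, a protein of the axon initial segment, read 4.55 to 6.54 over 4 probe sets. Its only probe set above the filter, 230242_at, read 6.48 and 6.54 in SN12C, 6.49 in LM1 and 6.51 and 6.51 in LM2, a difference of 0.00 ± 0.07 (SE) in LM2. The deposited value was identical on both LM2 arrays, and the commonest of this probe set's values occurred 262 times in the table. Its small SE is therefore no sign of precision.

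NCAM1, the neural cell adhesion molecule, read 4.35 to 7.19 over 7 probe sets, of which 4 reached the filter. The one with the highest mean, 209968_s_at, read 7.19 on all SN12C and LM2 arrays and 7.15 in LM1. A second, 214952_at, had 1 identical deposited value, 6.28, on all 5 arrays. Over CHL1, NRCAM, NFASC, NCAM1 and VCAM1 together, LM2 overlapped or tied with SN12C in 16 of 16 probe sets. Their largest differences from the SN12C mean were 0.24 in LM2 and 0.31 in LM1, in size, and the largest range within 1 probe set was 0.52. Of the 16 probe sets, 14 had tied values on at least 2 arrays, against 1 of the 14 probe sets of L1CAM, ALCAM, MCAM and ICAM1. Such ties were present in 72.8% of all probe sets below the filter and in 40.9% of those above it.

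**Figure D3:**
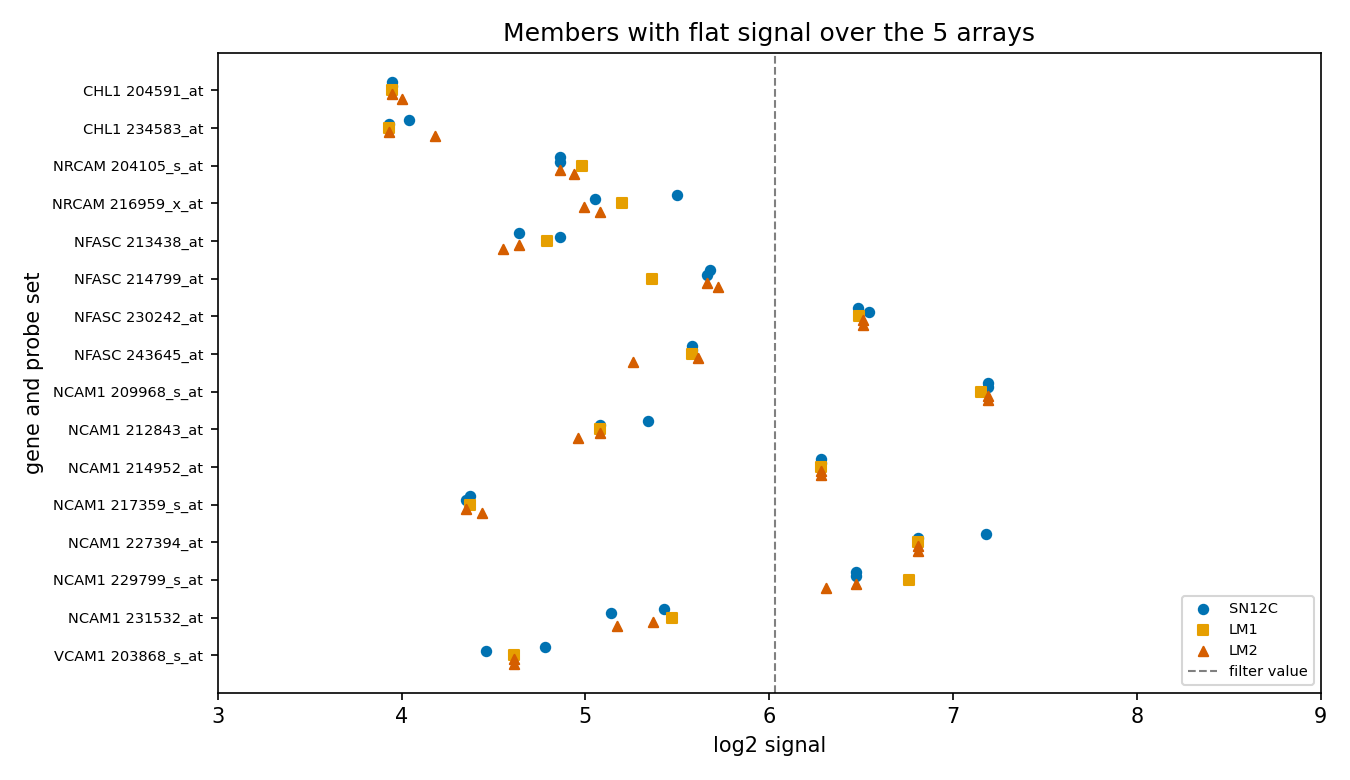
Log2 signal (x axis) of the 16 probe sets of CHL1, NRCAM, NFASC, NCAM1 and VCAM1 (y axis), with 1 point per array coloured by line; the dashed line is the filter value of 6.03. Points of a probe set lie within 0.52 of each other, and 11 of the 16 probe sets lie below the line.

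L1CAM was set beside its chromosomal neighbours, in gene order only. The 5 tested genes on each side of it on chromosome X had LM2 differences from -0.16 to 1.09 with a median of 0.19, and LM1 differences from -0.64 to 1.27 with a median of 0.01. The highest of these in LM2 was TMEM187 at 1.09 and in LM1 ARHGAP4 at 1.27. The brighter L1CAM probe set, at 2.40 in LM2 and 3.15 in LM1, lay above all 10. The other L1CAM probe set, at 0.99 in LM2 and 0.66 in LM1, did not. It lay below TMEM187 in LM2, and below ARHGAP4, TMEM187 (0.88) and HCFC1 (0.76) in LM1. L1CAM was chosen with its difference known, so nothing is read from its place among the neighbours. The 10 neighbours of ICAM1 on chromosome 19, which include its paralogues ICAM5 (0.17) and ICAM3 (0.20), had LM2 differences from -0.09 to 0.48.

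Genes with a profile like that of L1CAM were sought among the 3169 other tested genes that ranged over at least 1 log2 unit. Likeness was the mean absolute difference over the 5 arrays after each gene's own mean was subtracted. The 5 closest were KRT19, a simple epithelial keratin, at 0.14 log2 units, TMEM47, a membrane protein of cell junctions, at 0.16, PPP2R2B, a regulatory subunit of protein phosphatase PP2A, at 0.16, BEX5 at 0.21 and LVRN, the aminopeptidase laeverin, at 0.24. KRT19 is the renal carcinoma marker whose values are given above. Like L1CAM, all 5 were lowest in SN12C replicate 1 and highest in LM1, an order favoured by their choice for likeness on these same arrays. For ICAM1, whose probe set in use ranged over 0.44, the 5 closest such genes were EEF2, a translation elongation factor, at 0.16, IGSF3, an immunoglobulin superfamily protein, at 0.17, PROM2, a prominin, at 0.18, PSAT1, an enzyme of serine synthesis, at 0.19, and PIP5K1A, a phosphoinositide kinase, at 0.19. Genes as flat as this ICAM1 probe set could not be listed, since a range of at least 1 was required.

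Further immunoglobulin adhesion molecules were listed by function. Of the 43, 41 had a probe set and 31 were tested, and 0 passed an adjusted p of 0.05 in limma in LM2 or LM1 against SN12C. At an unadjusted p under 0.05, 2 were higher and 0 lower in LM2, where 6.96% of all tested genes were higher and 4.6% lower, and the median difference was 0.04. In LM1 6 were higher and 2 lower, where 17.2% and 4.96% of all tested genes were. The 4 with the lowest p in LM2 were CADM1, NECTIN3, THY1 and ROBO1. CADM1, a homophilic epithelial adhesion molecule, read 7.53 and 7.93 in SN12C, 8.78 in LM1 and 9.49 and 9.28 in LM2, without overlap of the lines (LM2 difference 1.66 ± 0.19, SE; limma adjusted p = 0.225).

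The 3 CADM1 probe sets above the filter gave LM2 differences of 1.66, 3.67 and 1.54 and LM1 differences of 1.05, 3.77 and 0.39. NECTIN3, which pairs with other nectins at junctions, was 0.66 ± 0.13 higher in LM2 (limma adjusted p = 0.292), and its second probe set gave 1.18. THY1, a GPI-anchored adhesion glycoprotein, read 9.73 and 10.83 in SN12C, 10.34 in LM1 and 11.73 and 11.44 in LM2, a difference of 1.31 ± 0.45 (limma adjusted p = 0.441). LM1 lay between the SN12C arrays in that probe set (0.07 from their mean), but the other 2 THY1 probe sets above the filter gave 1.27 and 1.45 in LM1, and 1.18 and 1.02 in LM2. ROBO1, the receptor of Slit guidance cues, read 8.36 and 8.94 in SN12C, 6.66 in LM1 and 8.03 and 7.55 in LM2. Its LM2 difference was -0.86 ± 0.30 (limma adjusted p = 0.448) and its LM1 difference -1.99 ± 0.37 (limma adjusted p = 0.124).

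Partners on the cytoplasmic side, the ankyrins, spectrins, ERM proteins and scaffold proteins that L1CAM, ICAM1 and related tails bind, were tested for 16 of 20 genes. In limma 0 passed an adjusted p of 0.05 in LM2. At an unadjusted p under 0.05, 5 of the 16 were higher and 1 lower in LM2, where 6.96% of all tested genes were higher and 4.6% lower. The median difference was 0.03, against 0.03 over all tested genes. ANK2, an ankyrin that binds L1 family tails, was the lower one, at 7.26 and 6.55 in SN12C, 7.31 in LM1 and 5.78 and 5.89 in LM2. Its LM2 difference was -1.08 ± 0.29 (limma adjusted p = 0.375), and both LM2 values were below 6.03.

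The actin-binding ACTN4 and ACTN1 were 0.62 ± 0.15 and 0.37 ± 0.10 higher in LM2 (limma adjusted p = 0.351 and 0.375). The other 3 ACTN1 probe sets gave 0.72, 0.60 and 0.02 in LM2 and -0.20, 0.11 and -0.16 in LM1, where the one in use gave 0.81. The scaffold DLG1 was 0.36 ± 0.09 higher in LM2 (limma adjusted p = 0.35) in the probe set in use. Its 6 probe sets above the filter ranged from 0.28 to 1.54 in LM2 and from -2.37 to 0.49 in LM1, again apart in LM1. The ERM proteins that link such tails to actin, chosen here for their role after their values were seen, had LM2 differences of 0.61 ± 0.37 for EZR, 0.02 ± 0.10 for MSN and 0.02 ± 0.16 for RDX. EZR read 10.59 and 11.51 in SN12C and 11.66 on both LM2 arrays, so its gap was mainly to SN12C replicate 1.

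Extracellular partners, shedding proteases and sialyltransferases were tested for 23 of 30 genes, and 0 passed an adjusted p of 0.05 in limma. At an unadjusted p under 0.05, 5 of the 23 were higher and 2 lower in LM2, where 6.96% of all tested genes were higher and 4.6% lower, and the median was -0.01. NRP1, a semaphorin co-receptor that forms complexes with L1CAM, read 9.80 and 10.00 in SN12C, 9.46 in LM1 and 10.77 and 10.65 in LM2, a difference of 0.81 ± 0.11 (limma adjusted p = 0.252). LM1 lay on the other side of SN12C in that probe set (-0.44) and above it in another (1.16). LGALS3, the lectin galectin-3, was 1.03 ± 0.15 higher in LM2 (limma adjusted p = 0.26), from a SN12C pair with identical values of 9.06.

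ITGB2, a chain of the ICAM1 receptors, was 0.94 ± 0.16 higher in LM2 (limma adjusted p = 0.277) and 0.99 higher in LM1. Its other probe sets above the filter disagreed, at 0.83 and 0.02 in LM2 and 0.34 and -0.75 in LM1. ITGAV, an integrin chain that binds L1CAM, was lower at -0.80 ± 0.15 (limma adjusted p = 0.289). GFRA1 and CD24 had larger LM2 differences at higher p, and are named after their values were seen. GFRA1 read 7.34 and 5.97 in SN12C, 9.38 in LM1 and 9.05 and 8.85 in LM2 (2.29 ± 0.54, limma adjusted p = 0.343). CD24 read 7.68 and 11.1 in SN12C, 7.71 in LM1 and 6.67 and 7.31 in LM2 (-2.40 ± 1.35, limma adjusted p = 0.617). CD6, the ALCAM receptor, chosen after its values were seen, read 7.71 to 7.72 on all arrays. ADAM10 and ADAM17, the proteases that shed L1CAM, likewise chosen for their role, had LM2 differences of 0.27 ± 0.14 and -0.85 ± 0.32 (limma adjusted p = 0.595 and 0.468). The ADAM17 difference was -1.24 against SN12C replicate 1 and -0.46 against replicate 2.

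**Figure D4:**
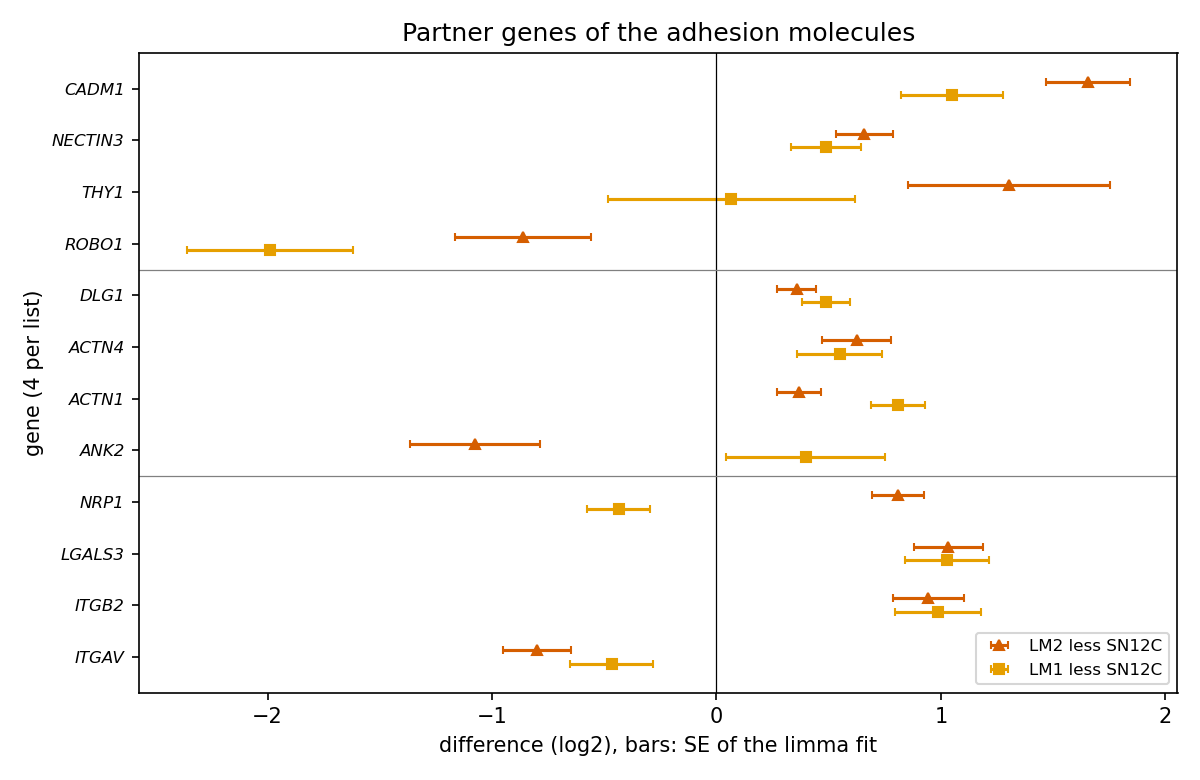
Difference from SN12C (x axis, log2) of the 4 genes with the lowest p in LM2 from each of 3 partner lists (y axis); triangles are LM2, squares LM1, and bars are standard errors of the limma fit. Among the 12 genes shown, CADM1 has the largest LM2 difference at 1.66. None of the 12 passed after adjustment over all genes, and NRP1 and ANK2 lie on opposite sides of 0 in the 2 lines.

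Markers of other cell types were set beside the adhesion molecules, since L1CAM and NCAM1 are also made by neurons and ICAM1 and VCAM1 by endothelium. Of 8 fibroblast markers 5 reached the filter (PDGFRB, PDGFRA, DCN, COL1A1 and COL3A1), and LUM, FAP and POSTN did not. The mean of that list was 6.51 and 6.76 in SN12C, 6.95 in LM1 and 7.01 and 7.04 in LM2. That mean was lowest in SN12C without overlap, as for L1CAM, but the list members did not move together. COL3A1, a fibrillar collagen chain, changed most, from 6.98 and 8.98 in SN12C to 10.04 in LM1 and 10.94 and 11.11 in LM2. COL1A1 read 9.01 to 9.04 on all arrays. PDGFRA was higher in LM2 (7.06 and 6.97 against 6.83 and 6.92 in SN12C) and POSTN lower (4.54 and 4.79 against 5.11 and 4.80). PDGFRB, DCN and FAP overlapped between SN12C and LM2, and LUM read 4.08 to 4.10 in both. The part of these genes in the L1CAM, ALCAM and MCAM values was not tested.

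Of 8 neural and glial markers 6 reached the filter (TUBB3, SYP, GFAP, ELAVL4, MAP2 and SOX10), and STMN2 and S100B did not. TUBB3 read 13.04 to 13.56 over the arrays, while the others that reached the filter read only 5.60 to 7.37. The mean of the 8 markers was 7.19 and 7.11 in SN12C, 7.07 in LM1 and 7.15 and 7.10 in LM2, without the L1CAM order of the lines. Of 8 endothelial markers PECAM1, VWF, TEK and CLDN5 reached it and CDH5, TIE1, EMCN and ERG did not, with a list mean of 6.14 and 6.01 in SN12C, 6.00 in LM1 and 5.88 and 5.93 in LM2. The endothelial list mean was lower in LM2 than in SN12C without overlap, as were 2 ICAM1 probe sets, but its members did not move together. TIE1 read 5.89 and 6.03 in SN12C and 4.87 and 5.02 in LM2, and TEK 7.28 and 6.71 against 6.57 and 6.66. VWF went the other way, from 6.22 and 6.34 in SN12C to 6.61 and 6.70 in LM2. The part of these genes in the ICAM1 values was not tested. Of 6 leukocyte markers CD3E, CD14, ITGAM and CD2 reached the filter and PTPRC and LYZ did not, with a list mean of 6.17 to 6.30.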

How the data were processed

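For each of the 5 arrays the authors deposited log2 signals by probe set (SN12C 2, LM1 1, LM2 2 arrays). The submitters' processing notes name RMA and Partek; their versions are not given in the sources used here. RMA in its usual form subtracts background and aligns the arrays' distributions before probes are summarised, which would remove array-wide differences in signal. The deposited arrays still differed in SD (2.11 to 2.25) and held many identical values, and the steps behind this are not given in the sources used here. No value was transformed again. Of 54675 probe sets, 62 are controls. A platform table named 41097 with 1 gene, 1801 with several and did not list 11777. Through gene IDs, 41043 matched a gene table (GRCh38.p14), used for names and gene order alone, and 0 symbols changed.

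The probe set with the highest mean stood for each gene, except that every probe set of the members is given. For 15024 genes with at least 2 arrays at the 40th percentile (6.03), 1 mean per line was fitted over all 5 arrays with limma 3.58.1 (R 4.3.3; lmFit, eBayes). P-values were adjusted by Benjamini-Hochberg at 0.05, with 2 residual degrees of freedom and 1.3 prior ones. LM1 is assumed to vary like the others. For 2 arrays against 2, the smallest two-sided p of an exact permutation test is 0.333. Whether replicates beyond the label "biological" were separate cultures is not stated, so standard errors and p-values measure only how these arrays spread, and the number of arrays limits the precision. Tied values shrink the estimated spread of the genes that have them. The fit was tested on simulated data.

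Members and partner lists were chosen with earlier results of these data known. By rule, all members, the 4 lowest p-values of each partner list and the 5 genes most like L1CAM or ICAM1 were named (VCAM1 did not pass the filter). Outside the rule, EZR, MSN, RDX, GFRA1, CD24, CD6, ADAM10, ADAM17, markers and chromosomal neighbours were named, with their values known. Figures used matplotlib 3.10.9. Alternatives covered the filter, the probe set, normalization, eBayes options, the arrays fitted, a replicate block and leaving out each replicate. As a check of pairing, the replicate 1 less replicate 2 differences of SN12C and LM2 correlated at r = 0.092 across genes.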

Additional observations from a re-analysis of the deposited data

How the results depend on the processing

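With 5 arrays, small differences are not resolved, and LM1 rests on a single array. For LM2 against SN12C 0 genes passed limma's adjusted threshold under all alternatives but one; leaving out 1 replicate gave 0 to 3824 genes, the upper value without SN12C replicate 2. For LM1 against SN12C leaving out 1 replicate gave 0 to 4823, with 4823 without SN12C replicate 2 and 1979 without SN12C replicate 1, and for LM2 against LM1 it gave 0 to 1273. In the fits without an SN12C array the spread comes from the LM2 pair alone, whose median gap between arrays was 0.07 log2 units (SN12C pair 0.28). Fitting the arrays of LM2 and LM1 alone, which leaves the same LM2 pair, also gave 1273. The L1CAM difference between LM2 and SN12C was 1.70 as the mean of its probe sets, and 2.08 to 2.72 when 1 replicate was left out. With _x_at and _s_at probe sets left out, MCAM stood at -0.015 in LM2 and -0.114 in LM1, opposite in sign to its main values. These values come from 1568191_at, in which the lines overlapped, so no difference is read from them. With the most variable probe set ALCAM stood at -1.15 in LM1, the reverse of its main value. With the replicate block, a paired fit of SN12C and LM2, 0 genes passed and the L1CAM difference stayed 2.40; the labels share only replicate numbers between lines.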
